A study of Homo sapiens with 9 samples.

Results

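Notch signalling was read at the RNA level in the established Ewing sarcoma cell line TC32 through 10 genes chosen by name: the ligand genes JAG1, JAG2 and DLL1, the receptor genes NOTCH1, NOTCH2 and NOTCH3, and the target genes HES1, HES4, HEY1 and HEY2. They are 10 of 58233 gene IDs, each found once by its symbol, and all are annotated as protein coding. There were 9 libraries of polyadenylated RNA in 3 groups of 3, all from cells grown in RPMI medium with fetal bovine serum. Inhibitor cells had Wnt3a for 28 h, with SB-505124 added for the last 24 h. SB-505124 is a small molecule that inhibits the type I receptor kinases for TGF-β and activin. Wnt3a cells had Wnt3a for 28 h, with DMSO added for the last 24 h. Vehicle cells had PBS and DMSO over the same times. No group had SB-505124 without Wnt3a, so an effect of the inhibitor alone was not measured, and a single line stands for the tumour type. The labels do not say that replicates were separate cultures, so each p-value stands on library-to-library spread that could be technical.

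Notch is a signalling system between touching cells. A ligand of the Jagged or Delta-like family on 1 cell binds a NOTCH receptor on its neighbour, the receptor is cut by an ADAM protease and then by γ-secretase, and the freed intracellular part enters the nucleus. There it joins the DNA-binding protein RBPJ and the coactivator MAML and switches on HES and HEY genes, which encode transcriptional repressors. The pathway is best known for cell fate choices and, in blood vessels, for the choice between tip and stalk cells, where Jagged and Delta-like ligands have opposed roles. In Ewing sarcoma cells, HES1 and the Jagged ligands have been studied as parts of a Notch pathway that the tumour's fusion protein is reported to restrain.

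Promoter sequences are shown for JAG1 and JAG2, the ligand genes whose transcripts went opposite ways with the inhibitor, and for HES1, the target gene with the highest level. They are the 250 bases before each annotated start, from RefSeq on GRCh38.p14, and capitals mark the core letters of an RBPJ site, TGGGAA.
JAG1, chr20:10674000-10674249, minus strand: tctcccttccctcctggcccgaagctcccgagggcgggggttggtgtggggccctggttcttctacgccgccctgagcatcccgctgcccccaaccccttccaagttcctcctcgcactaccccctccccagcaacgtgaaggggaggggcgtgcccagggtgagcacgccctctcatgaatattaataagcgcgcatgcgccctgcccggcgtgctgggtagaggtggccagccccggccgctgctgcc
JAG2, chr14:105168777-105169026, minus strand: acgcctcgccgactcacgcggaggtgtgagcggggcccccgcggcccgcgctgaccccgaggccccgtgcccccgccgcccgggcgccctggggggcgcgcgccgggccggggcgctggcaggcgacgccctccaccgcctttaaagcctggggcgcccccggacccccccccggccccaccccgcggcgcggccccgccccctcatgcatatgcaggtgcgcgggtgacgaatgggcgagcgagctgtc
HES1, chr3:194135898-194136147, plus strand: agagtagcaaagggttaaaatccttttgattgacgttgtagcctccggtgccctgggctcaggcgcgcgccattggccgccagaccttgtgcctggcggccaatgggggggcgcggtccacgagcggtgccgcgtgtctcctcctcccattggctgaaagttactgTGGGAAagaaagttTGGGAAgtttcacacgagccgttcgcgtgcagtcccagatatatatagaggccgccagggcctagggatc

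The HES1 sequence holds TGGGAA 2 times on the same strand, at bases -84 to -79 and -70 to -65 from the start. The search used windows of 250 bases before to 50 bases after the start and both strands, and 8 of the 10 genes had a RefSeq window (DLL1 and HEY1 are named only). HES1, HES4 and HEY2 held TGGGAA, against 24.3% of 27305 promoter windows, and no ligand or receptor window did. The short SMAD site CAGAC was in the HES1, HEY2 and JAG1 windows and in 45% of all windows, and its palindrome GTCTAGAC, in 0.201% of all windows, was in none of the 8. The TCF/LEF core CTTTGA was in none of the 8 and in 13.1% of all windows. The N box CACNAG, which HES proteins bind, was in the HES1, NOTCH1, NOTCH2 and NOTCH3 windows and in 38% of all windows. No matches of different motifs overlapped in the HES1 window. GC content of the printed stretch was 68.4% for JAG1, 81.6% for JAG2 and 59.2% for HES1. A match describes the letters in a window and is not a measured binding site.

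Libraries held 28844348 to 37540072 expected counts in inhibitor cells, 36903919 to 42976799 in Wnt3a cells and 34348339 to 38637007 in vehicle cells. The inhibitor libraries parted from the other libraries on principal component 1 (56.5% of the variance). On component 2 (14.7%) inhibitor library 1 lay at 66.9 and the other inhibitor libraries at -26.9 and -24.5. All 8 Ewing markers were present, with sums of 1746.7 to 2147.0, 2012.0 to 2275.0 and 2438.4 to 2640.2 CPM (counts scaled to 1e6 per library) in inhibitor, Wnt3a and vehicle cells. Of 8 endothelial markers, CDH5, KDR, TIE1, TEK and VWF were under 1 CPM in every library, and the list summed to 12.8 to 21.0, 24.2 to 28.4 and 29.3 to 35.3 CPM in inhibitor, Wnt3a and vehicle cells, mostly EGFL7. Of 8 mural markers, MYH11, DES, KCNJ8 and ABCC9 were under 1 CPM in every library, and the list summed to 432.5 to 500.4, 464.2 to 836.1 and 487.2 to 537.3 CPM, mostly ACTA2. The 6 fibroblast markers, of which PDGFRA was under 1 CPM in every library, summed to 284.7 to 306.1, 414.4 to 738.5 and 362.1 to 598.5 CPM. The 5 leukocyte and 5 epithelial markers summed to at most 1.57 and 1.11 CPM. Single markers moved more than these sums. In inhibitor over Wnt3a cells the Ewing markers NKX2-2 (-1.0 ± 0.146, log2 fold change ± SE), LIPI (-0.65 ± 0.144), EWSR1 (-0.56 ± 0.0807) and NR0B1 (-0.52 ± 0.162) were called lower. Of the fibroblast list, COL1A1 (-5.07 ± 0.457), COL1A2 (-4.49 ± 0.484) and THY1 (-0.86 ± 0.222) were lower and LUM (0.37 ± 0.13) higher. Of the mural list, RGS5 (-1.08 ± 0.361), CSPG4 (-1.4 ± 0.515), PDGFRB (-0.83 ± 0.166) and DES (-1.49 ± 0.456) were called lower. CSPG4 and DES were scarce, with group means of at most 1.06 and 0.65 CPM. Of the endothelial list, EGFL7 (-0.615 ± 0.222) was called lower. Of all tested genes, 25.9% were called lower and 24.5% higher in that comparison. In inhibitor over vehicle cells PDGFRB was the only mural marker called, where 24.8% of all tested genes were lower. The part of these markers in the Notch results was not tested. Of the Wnt targets, AXIN2 rose by 2.61 ± 0.157 (log2 fold change ± SE) and NKD1 by 2.69 ± 0.272 in Wnt3a over vehicle cells (adjusted p = 0.000119 and 0.00299, edgeR's quasi-likelihood test with Benjamini-Hochberg adjustment). SMAD7, a TGF-β target, had a log2 fold change of -0.27 in inhibitor over Wnt3a cells that did not pass (adjusted p = 0.157, edgeR). It passed under 4 of 21 alternatives. The values were -0.53 with library totals alone and -0.53 with an offset for transcript length (adjusted p = 0.014 and 0.0254, edgeR). With limma on log2 TPM, described below, they were -0.80 and -0.87 at pseudocounts of 1 and 0.1 (adjusted p = 0.00304 and 0.00283).

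Wnt3a alone moved none of the Notch genes past the threshold, and with the inhibitor JAG1 rose while JAG2 and NOTCH2 fell. Of the 10 genes, 8 passed the filter on low counts, and DLL1 and HEY2 did not. In Wnt3a over vehicle cells 0 of the 8 were called at an adjusted p under 0.05, where 0.397% of 17880 tested genes were called higher and 0.0224% lower. In inhibitor over Wnt3a cells 1 was called higher and 2 lower, where 24.5% of all tested genes were called higher and 25.9% lower. In inhibitor over vehicle cells JAG1 was called higher and JAG2 lower, where 25% of all tested genes were called higher and 24.8% lower. With 8 genes tested, these counts do not stand apart from that background and are no result about the Notch genes as a group. The median log2 fold change of the 8 was 0.0005, -0.24 and -0.14 in the 3 comparisons in that order, against 0.0108, -0.0571 and -0.0402 over all tested genes. Without inhibitor library 1, NOTCH1 also passed, which made 4 genes called in inhibitor over Wnt3a cells and 3 in inhibitor over vehicle cells.

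The balance of calls over all genes depends on the scaling. With trimmed-mean (TMM) scaling, which all CPM values here use, 48.6% of the calls in inhibitor over Wnt3a cells and 50.2% in inhibitor over vehicle cells were higher. With library totals alone those shares were 30.6% and 33.6%, and the median log2 fold change over all genes became -0.31 and -0.27. With limma on the authors' TPM, a level scaled for transcript length and library size, the shares were 26.5% and 33.3% at a pseudocount of 1, and 25.9% and 32.4% at 0.1. No total RNA per cell was measured, and fewer cells and less RNA per cell cannot be told apart in bulk libraries.

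**Figure D1:**
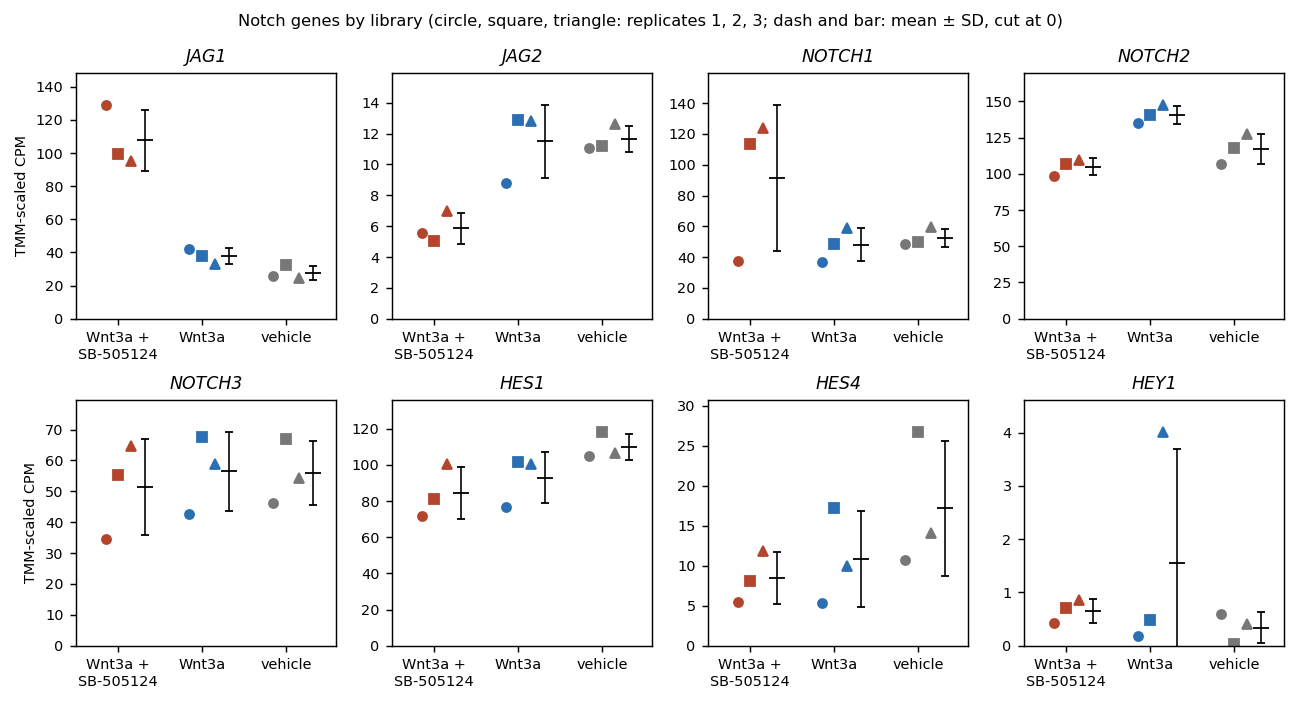
TMM-scaled CPM of the 8 tested Notch genes in each library (y axis, linear, a scale of its own per gene), with inhibitor cells (Wnt3a + SB-505124), Wnt3a cells and vehicle cells from left to right. Symbols are libraries, and the dash with its bar is the mean ± SD of 3. JAG1 in inhibitor cells lay at 95 to 128.9 CPM, above the other libraries, and NOTCH1 in inhibitor library 1 lay at 37.3 CPM, far below its 2 partners.

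JAG1 (ENSG00000101384.11, chromosome 20, 10637684 to 10673999, minus strand, hg38, GENCODE release 29) encodes Jagged1, a membrane ligand of the NOTCH receptors. It had 128.9, 99.6 and 95 CPM in inhibitor libraries 1, 2 and 3, 42.3, 38.1 and 33.1 CPM in Wnt3a libraries, and 25.7, 32.2 and 24.6 CPM in vehicle libraries. Inhibitor libraries lay above all the others, and the Wnt3a libraries lay above the vehicle libraries. In inhibitor over Wnt3a cells JAG1 rose by 1.51 ± 0.155 on the log2 scale (log2 fold change ± SE, 2.85-fold, adjusted p = 4.39e-05, edgeR), and in inhibitor over vehicle cells by 1.97 ± 0.157 (3.92-fold, adjusted p = 1.07e-05, edgeR). The Wnt3a over vehicle value was 0.46 ± 0.153, with a 95% interval of 0.119 to 0.801, and did not pass over all genes (adjusted p = 0.421, edgeR). Under the 21 alternatives tried, the value for inhibitor over Wnt3a cells stayed between 1.18 and 1.60 and always passed.

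JAG2 (ENSG00000184916.8, chromosome 14, 105140981 to 105168824, minus strand), which encodes the related ligand Jagged2, went the other way. It had 5.54, 5.02 and 7.0 CPM in inhibitor libraries, 8.79, 12.9 and 12.8 CPM in Wnt3a libraries, and 11.1, 11.2 and 12.6 CPM in vehicle libraries. All inhibitor libraries were below all the others, while the Wnt3a and vehicle libraries overlapped. Its log2 fold change was -0.98 ± 0.193 in inhibitor over Wnt3a cells (adjusted p = 0.00209, edgeR) and -0.99 ± 0.194 in inhibitor over vehicle cells (adjusted p = 0.00198, edgeR), or 0.508-fold and 0.504-fold. Between Wnt3a and vehicle cells it was -0.01, with a 95% interval of -0.43 to 0.41. The mean effective transcript length that RSEM assigned to JAG2 was 2847, 3086 and 3966 bases in inhibitor libraries, 3976, 3811 and 3676 bases in Wnt3a libraries, and 3922, 4450 and 4261 bases in vehicle libraries. With an offset for that length the log2 fold changes over Wnt3a and over vehicle cells were -0.79 and -0.67, both past the threshold.

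DLL1, which encodes Delta-like 1, was near the lower end of detection. Its expected counts were 2, 9 and 9 in inhibitor libraries, 1, 7 and 5 in Wnt3a libraries, and 4, 5 and 3 in vehicle libraries, at most 0.288 CPM. The groups overlapped and no test was run, since the gene did not pass the filter.

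Per length, JAG1 held most of the summed TPM of the 3 ligand genes in every library. Its share was 94.5%, 95.1% and 92.8% in inhibitor libraries, 82.6%, 75.3% and 72.1% in Wnt3a libraries, and 67.5%, 77.5% and 64.1% in vehicle libraries. JAG2 held nearly all of the rest, 4.68% to 6.82% in inhibitor libraries, 17.3% to 27.6% in Wnt3a libraries and 22.2% to 35.5% in vehicle libraries. The summed ligand TPM was 42.2, 40.8 and 31.4 in inhibitor libraries, 19.2, 22.0 and 18.6 in Wnt3a libraries, and 12.7, 16.1 and 12.1 in vehicle libraries. The 3 groups did not overlap in that sum, for which no test was run.

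**Figure D2:**
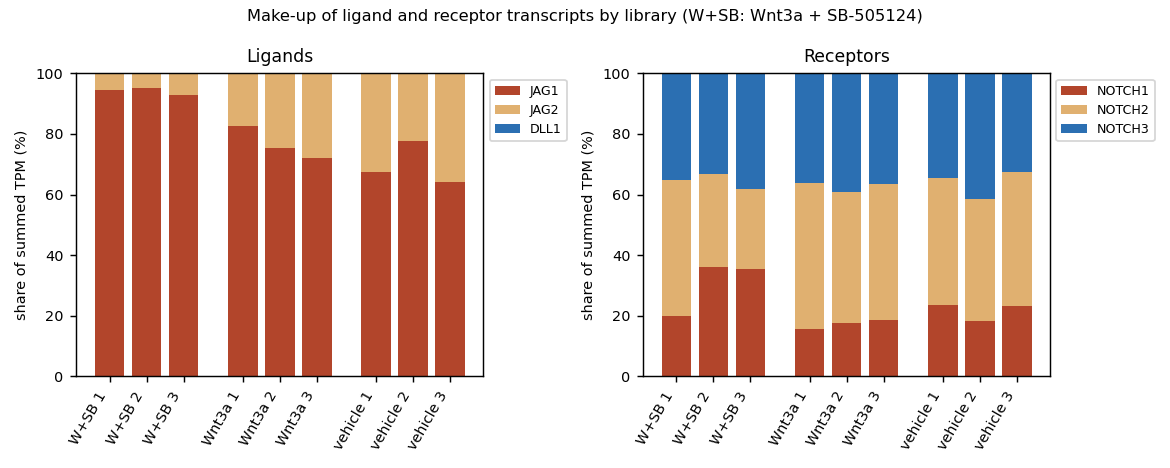
Share of the summed TPM (y axis, percent, stacked to the whole) held by each ligand gene (left) and each receptor gene (right) in each of the 9 libraries, with inhibitor cells (W+SB) first, then Wnt3a and vehicle cells. JAG1 took 92.8% to 95.1% of ligand TPM in inhibitor libraries, and NOTCH1 took 36.0% and 35.3% of receptor TPM in inhibitor libraries 2 and 3 but 20% in library 1.

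Among the receptor genes, NOTCH2 fell with the inhibitor relative to Wnt3a, NOTCH1 split the inhibitor libraries, and NOTCH3 showed no difference past the threshold. NOTCH1 (ENSG00000148400.9, chromosome 9, 136494433 to 136545786, minus strand) had 37.3, 113.3 and 123.7 CPM in inhibitor libraries, 36.9, 48.8 and 58.8 CPM in Wnt3a libraries, and 48.4, 49.6 and 59.3 CPM in vehicle libraries. Inhibitor libraries 2 and 3 were above every other library, and inhibitor library 1 was at the level of the lowest Wnt3a library. The coefficient of variation within a group was 51.6% in inhibitor cells, 22.7% in Wnt3a cells and 11.4% in vehicle cells. NOTCH1 had a log2 fold change of 0.93 ± 0.36 in inhibitor over Wnt3a cells (adjusted p = 0.054, edgeR) and 0.80 ± 0.359 in inhibitor over vehicle cells (adjusted p = 0.0878, edgeR). Neither passed. Without inhibitor library 1 the values were 1.30 and 1.18 (adjusted p = 0.000296 and 0.000521, edgeR). DESeq2 called both as well (0.94 and 0.81, adjusted p = 0.0143 and 0.0384), as did edgeR with every gene of at least 1 count (0.90 and 0.79, adjusted p = 0.000735 and 0.00312). In all, 4 and 3 of the 21 alternatives passed, and the values ranged over 0.36 to 1.30 and 0.32 to 1.18, with adjusted p up to 0.46 and 0.523 (limma on TPM). The same library stood apart on principal component 2, and what set it apart was not tested.

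NOTCH2 (ENSG00000134250.19, chromosome 1, 119911553 to 120069626, minus strand) had the tightest replicates of the receptor genes. It had 98.5, 106.8 and 109.5 CPM in inhibitor libraries, 134.8, 140.5 and 147.3 CPM in Wnt3a libraries, and 106.8, 118.0 and 127.5 CPM in vehicle libraries. Each Wnt3a library was above each inhibitor and each vehicle library, and the inhibitor and vehicle libraries overlapped. Its log2 fold change in inhibitor over Wnt3a cells was -0.42 ± 0.0926, or 0.745-fold (adjusted p = 0.00362, edgeR), and -0.68 with library totals alone. For Wnt3a over vehicle cells it was 0.26 ± 0.0924 and did not pass over all genes (adjusted p = 0.464, edgeR). For inhibitor over vehicle cells it was -0.16 ± 0.0926 (adjusted p = 0.172, edgeR), and with library totals alone it was -0.39 (adjusted p = 0.00432, edgeR). NOTCH2 is uncertain to the extent that its reads are shared with the partial copy NOTCH2NL, which had 4.77 to 9.79 CPM in inhibitor libraries, 13.4 to 15.3 CPM in Wnt3a libraries and 13.4 to 14.5 CPM in vehicle libraries.

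NOTCH3 (ENSG00000074181.8, chromosome 19, 15159038 to 15200981, minus strand), known as the receptor of mural cells, had 34.4, 55.4 and 64.8 CPM in inhibitor libraries, 42.7, 67.7 and 59.0 CPM in Wnt3a libraries, and 46.3, 67.1 and 54.4 CPM in vehicle libraries. The groups overlapped throughout, and library 1 was the lowest of each. NOTCH3 had a log2 fold change of -0.13 in inhibitor over Wnt3a cells, with a 95% interval of -0.67 to 0.41 (adjusted p = 0.674, edgeR). Against vehicle cells the inhibitor value was -0.12, with an interval of -0.65 to 0.42. That of Wnt3a over vehicle cells was 0.01, with an interval of -0.52 to 0.55. Of the summed receptor TPM, NOTCH3 held 35.0%, 33.1% and 38.2% in inhibitor libraries, 36.0%, 39.2% and 36.4% in Wnt3a libraries, and 34.6%, 41.5% and 32.7% in vehicle libraries. The NOTCH2 share was 44.9%, 30.9% and 26.4% in inhibitor libraries, 48.3%, 43.2% and 44.9% in Wnt3a libraries, and 41.8%, 40.2% and 44.1% in vehicle libraries. The share of NOTCH3 overlapped between the groups, and that of NOTCH2 was lowest in inhibitor libraries 2 and 3.

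**Figure D3:**
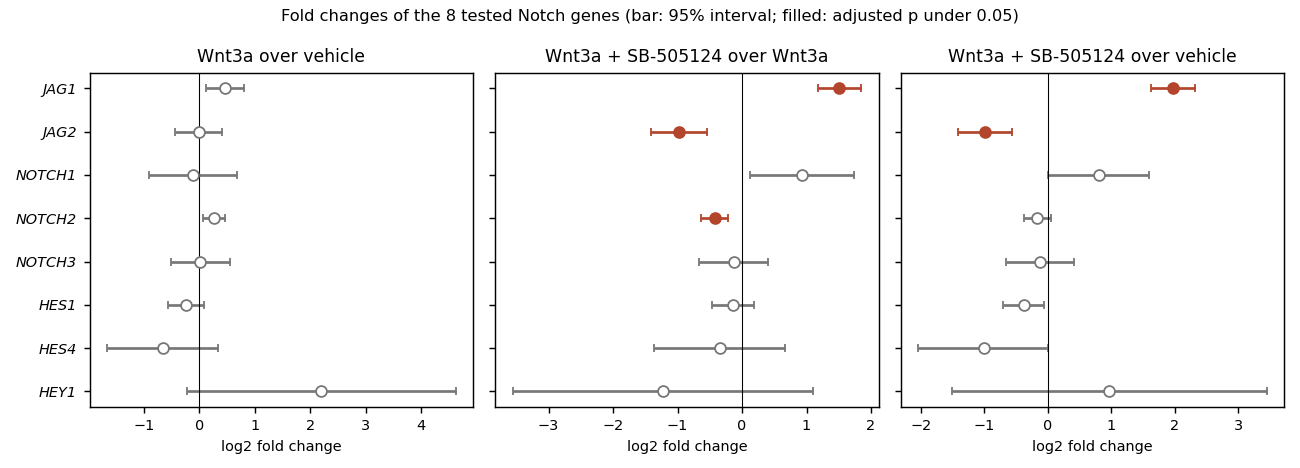
Log2 fold change (x axis) of the 8 tested Notch genes in Wnt3a over vehicle cells (left), inhibitor over Wnt3a cells (middle) and inhibitor over vehicle cells (right), with the 95% interval as a bar and an x scale of its own per panel. Filled points passed an adjusted p of 0.05 over all 17880 genes, which were JAG1, JAG2 and NOTCH2 in the middle panel, JAG1 and JAG2 on the right and none on the left. Each pair of panels shares the libraries of 1 group.

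HES1, HES4 and HEY1 did not pass the threshold in any comparison, and HEY2 was not tested. HES1 (ENSG00000114315.3, chromosome 3, 194136145 to 194138732, plus strand) encodes a repressor and is a direct target of NOTCH. It had 71.9, 80.9 and 100.5 CPM in inhibitor libraries, 76.5, 101.8 and 100.4 CPM in Wnt3a libraries, and 104.7, 118.1 and 106.7 CPM in vehicle libraries. All vehicle libraries were above all the other libraries, and inhibitor and Wnt3a libraries overlapped. HES1 had a log2 fold change of -0.38 ± 0.146 in inhibitor over vehicle cells, with a 95% interval of -0.70 to -0.05 (adjusted p = 0.0526, edgeR). It passed under 11 of the 21 alternatives, with values between -0.68 and -0.27 over the 21. Those that passed included DESeq2 (adjusted p = 0.0409), limma-voom (adjusted p = 0.0479) and library totals alone (adjusted p = 0.00637, edgeR). Of the fits with a library left out, only 2 passed. They were those without inhibitor library 3 (adjusted p = 0.0179, edgeR) and without Wnt3a library 1 (adjusted p = 0.0375, edgeR). The other 10 alternatives did not pass. In inhibitor over Wnt3a cells it was -0.14 ± 0.146 (adjusted p = 0.453, edgeR), and -0.39 with library totals alone (adjusted p = 0.0474, edgeR). The Wnt3a over vehicle value was -0.24 ± 0.145, with an interval of -0.56 to 0.08. The interval for inhibitor over Wnt3a cells was -0.46 to 0.19 with TMM scaling, and a link between HES1 and JAG1 was not tested.

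HES4, a related repressor gene of the human genome, had 5.43, 8.15 and 11.9 CPM in inhibitor libraries, 5.32, 17.2 and 9.92 CPM in Wnt3a libraries, and 10.7, 26.7 and 14.1 CPM in vehicle libraries. The groups overlapped, and vehicle library 2 was the highest. HES4 had a log2 fold change of -1.01 ± 0.459 in inhibitor over vehicle cells (adjusted p = 0.0913, edgeR), and it passed under 4 of 21 alternatives. In inhibitor over Wnt3a cells it was -0.35 ± 0.457, and 0.16 without Wnt3a library 2.

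HEY1 and HEY2, targets of NOTCH in blood vessels and the heart, were scarce. HEY1 had 0.417, 0.701 and 0.863 CPM in inhibitor libraries, 0.177, 0.491 and 4.01 CPM in Wnt3a libraries, and 0.59, 0.0242 and 0.41 CPM in vehicle libraries. Wnt3a library 3 alone was above 1 CPM. The log2 fold change of HEY1 in Wnt3a over vehicle cells was 2.20 ± 1.09 (adjusted p = 0.715, edgeR), and -0.0074 without that library. HEY2 summed to 21 expected counts in inhibitor libraries, 7 in Wnt3a libraries and 4 in vehicle libraries, at most 0.32 CPM, and was not tested.

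Ordered by TPM, which compares genes per length, HES1 was the highest of the 10 genes in each group, with 66.4 ± 12.8 TPM in inhibitor cells, 94.1 ± 15.4 TPM in Wnt3a cells and 104.9 ± 6.33 TPM in vehicle cells (SD, n = 3 each). JAG1 took rank 2 in inhibitor cells with 35.9 ± 5.92 TPM, overlapping neither HES1 nor the gene after it. It took rank 5 in Wnt3a cells with 15.3 ± 1.66 TPM and rank 5 in vehicle cells with 9.57 ± 2.52 TPM. In both, JAG1 libraries overlapped those of NOTCH3, and in vehicle cells also those of NOTCH1. NOTCH3, HES4, NOTCH1 and NOTCH2 followed JAG1 in inhibitor cells at 13.1 ± 4.79, 12.0 ± 5.86, 11.9 ± 6.28 and 11.8 ± 1.05 TPM, and neighbours in that order overlapped. In Wnt3a cells NOTCH2 took rank 2 with 20.9 ± 1.72 TPM, overlapping HES4 at rank 3 with 20.7 ± 13.1 TPM. NOTCH1 took rank 6 there with 8.07 ± 1.68 TPM. In vehicle cells HES4 took rank 2 with 31.9 ± 15.3 TPM, and NOTCH1 took rank 6 with 8.25 ± 0.922 TPM. JAG2 took rank 7 in each group, at 2.11 ± 0.187, 4.60 ± 1.11 and 3.97 ± 0.37 TPM in inhibitor, Wnt3a and vehicle cells. HEY1, HEY2 and DLL1 stayed at or below a group mean of 1.16 TPM.

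Genes with the most similar pattern were taken from the 9949 genes with a mean of at least 10 CPM, by Pearson's r of log2 CPM over the 9 libraries. For JAG1 these were NPEPPS (r = 0.995), MASP1 (r = 0.992) and SPICE1 (r = 0.992), and MASP1 averaged 149.6 CPM in inhibitor cells, 40.1 in Wnt3a cells and 23.2 in vehicle cells. For HES1 they were ENDOG (r = 0.959), BCL11B (r = 0.947) and MESDC1 (r = 0.943). The libraries part by group and share the scaling, so many genes have high r, and these values describe a likeness with no test.

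The rest of the Notch machinery was read from a list of 61 other genes, of which 50 were tested. Sizes of rises and falls below are log2 fold changes ± SE. In Wnt3a over vehicle cells none of the 50 was called. In inhibitor over Wnt3a cells 13 were higher and 9 lower, with a median log2 fold change of 0.185, and in inhibitor over vehicle cells 20 were higher and 11 lower, with a median of 0.257. Of all tested genes 24.5% were higher and 25.9% lower in inhibitor over Wnt3a cells, and 25% higher and 24.8% lower in inhibitor over vehicle cells. The 13 of 50 are near that background, and the 20 of 50 are above it, with no test of the difference.

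Of the 9 genes for receptor cleavage, 3 rose and 1, APH1B, fell in inhibitor over Wnt3a cells. Of all tested genes 24.5% rose and 25.9% fell there. APH1B had a log2 fold change of -0.754 ± 0.254 (adjusted p = 0.0308, edgeR). Its effective length was 1512 to 2173 bases in inhibitor libraries and 3538 to 3947 bases in Wnt3a libraries. Its TPM overlapped between them, at 5.55 ± 0.984 and 6.02 ± 0.844 (SD). The part of the length in the APH1B call was not tested. NCSTN, which encodes the γ-secretase subunit nicastrin, had 280.2, 297.3 and 286.2 CPM in inhibitor libraries and 172.9, 166.0 and 169.8 CPM in Wnt3a libraries, a log2 fold change of 0.76 ± 0.0733 (adjusted p = 3e-05, edgeR). APH1A, which encodes another subunit, rose by 0.39 ± 0.0978 (adjusted p = 0.00774, edgeR). APH1A had a value of 0.14 with library totals alone and did not pass (adjusted p = 0.293, edgeR). Relative to vehicle cells 5 of the 9 rose and 1 fell, where 25% of all tested genes rose and 24.8% fell.

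The largest fall among these lists in inhibitor over Wnt3a cells was that of LFNG, which encodes the Fringe enzyme that adds a sugar to NOTCH and alters which ligands it answers to. It had 0.342, 0.365 and 0.256 CPM in inhibitor libraries, 4.08, 2.75 and 1.89 CPM in Wnt3a libraries, and 2.0, 2.01 and 1.71 CPM in vehicle libraries. The inhibitor libraries lay apart from all the others. The log2 fold change was -3.17 ± 0.358 in inhibitor over Wnt3a cells and -2.56 ± 0.356 in inhibitor over vehicle cells (adjusted p = 7.61e-05 and 0.000252, edgeR). For LFNG limma on log2(TPM + 1), a scale that shrinks changes at such low levels, gave -1.48 and -1.04, both past the threshold. Another Fringe gene, RFNG, rose by 0.76 ± 0.203 in inhibitor over Wnt3a cells (adjusted p = 0.0105, edgeR), which with library totals alone was 0.51 and did not pass (adjusted p = 0.0833, edgeR). POGLUT1, which encodes an enzyme that glucosylates NOTCH, fell by 0.75 ± 0.102 (adjusted p = 0.000215, edgeR). MIB1, which encodes the ubiquitin ligase that drives ligand endocytosis, rose by 0.72 ± 0.152 in inhibitor over vehicle cells (adjusted p = 0.00314, edgeR). Of the 8 genes tested in this list, 2 rose and 2 fell in both comparisons with inhibitor cells. Of all tested genes 24.5% rose and 25.9% fell over Wnt3a cells, and 25% and 24.8% over vehicle cells.

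In the nuclear complex of 9 genes, 2 rose and 1 fell in inhibitor over Wnt3a cells. Of all tested genes 24.5% rose and 25.9% fell there. The coactivator genes SNW1 and CREBBP rose by 0.79 ± 0.122 and 0.98 ± 0.191 (adjusted p = 0.000497 and 0.00187, edgeR), and MAML3, of the mastermind family, fell by 0.92 ± 0.164 (adjusted p = 0.00112, edgeR). With the offset for effective length MAML3 was at -0.72 and did not pass (adjusted p = 0.0516, edgeR). RBPJ itself had a log2 fold change of 0.12 ± 0.12 there (adjusted p = 0.432, edgeR). In inhibitor over vehicle cells RBPJ was called higher, at 0.375 ± 0.12 (adjusted p = 0.0251, edgeR). Relative to vehicle cells 6 of the 9 rose and 1 fell, against a background of 25% and 24.8% over all tested genes. The 6 included MAML1 at 0.536 ± 0.167 and MAML2 at 1.42 ± 0.305 (adjusted p = 0.0221 and 0.00334, edgeR). MAML1 had 67.6 to 113.7 CPM in inhibitor libraries and 64.8 to 68.1 CPM in vehicle libraries, which overlapped. MAML2 was at 1.31 ± 0.303 in Wnt3a over vehicle cells (adjusted p = 0.148, edgeR). In inhibitor over Wnt3a cells MAML2 was at 0.107 ± 0.294 (adjusted p = 0.78, edgeR). The 1 that fell relative to vehicle cells was MAML3, at -0.959 ± 0.164 (adjusted p = 0.000897, edgeR). Of 11 corepressor genes tested, 3 rose and 3 fell in inhibitor over Wnt3a cells, against a background of 24.5% and 25.9%. CIR1, which encodes a corepressor that binds RBPJ, had 77.8, 92.6 and 79.7 CPM in inhibitor libraries, 25.3, 26.1 and 27.3 CPM in Wnt3a libraries, and 30.7, 24.9 and 25.1 CPM in vehicle libraries. Its log2 fold change in inhibitor over Wnt3a cells was 1.67 ± 0.115 (adjusted p = 5.47e-06, edgeR). KDM5A, which encodes a histone demethylase, rose by 0.69 ± 0.124, and L3MBTL3, which encodes an RBPJ partner, fell by 0.78 ± 0.112 (adjusted p = 0.00114 and 0.000324, edgeR). Relative to vehicle cells 3 corepressor genes rose and 4 fell, against a background of 25% and 24.8%.

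Of 9 tested genes for inhibitors and turnover of NOTCH, 3 rose and 0 fell in inhibitor over Wnt3a cells (edgeR). In inhibitor over vehicle cells 4 rose and 0 fell. Of all tested genes 24.5% rose and 25.9% fell in the former comparison, and 25% and 24.8% in the latter. No test set the counts of these 9 genes apart from that background. FBXW7, which encodes the ubiquitin ligase subunit that marks the freed NOTCH fragment for destruction, had 58.1, 43.0 and 42.1 CPM in inhibitor libraries, 14, 15.3 and 15.4 CPM in Wnt3a libraries, and 16.3, 12.8 and 16.0 CPM in vehicle libraries. Its log2 fold change was 1.68 ± 0.152 in inhibitor over Wnt3a cells (adjusted p = 2.25e-05, edgeR). DTX2, which encodes a Deltex protein, rose by 1.12 ± 0.195 and the ubiquitin ligase gene ITCH by 0.44 ± 0.128 (adjusted p = 0.000964 and 0.015, edgeR), and ITCH did not pass with library totals alone (0.20, adjusted p = 0.194, edgeR) or without Wnt3a library 2 (0.40, adjusted p = 0.0578, edgeR). Both tested genes of the other HES and HEY family fell in inhibitor over Wnt3a cells, where 25.9% of all tested genes fell. HES6 had 14.7, 18.6 and 19.8 CPM in inhibitor libraries, 40.6, 48.1 and 26.1 CPM in Wnt3a libraries, and 30.7, 53.2 and 34.3 CPM in vehicle libraries. Its log2 fold change was -1.11 ± 0.257 in inhibitor over Wnt3a cells, and that of HEYL was -1.12 ± 0.291 (adjusted p = 0.00504 and 0.00899, edgeR). HEYL was scarce, with at most 6.47 CPM in any library. Of the other ligand and receptor genes, 2 of 5 were tested, and DLL3 fell by 0.77 ± 0.270 in inhibitor over vehicle cells (adjusted p = 0.0366, edgeR), a call that 9 of 21 alternatives lost.

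**Figure D4:**
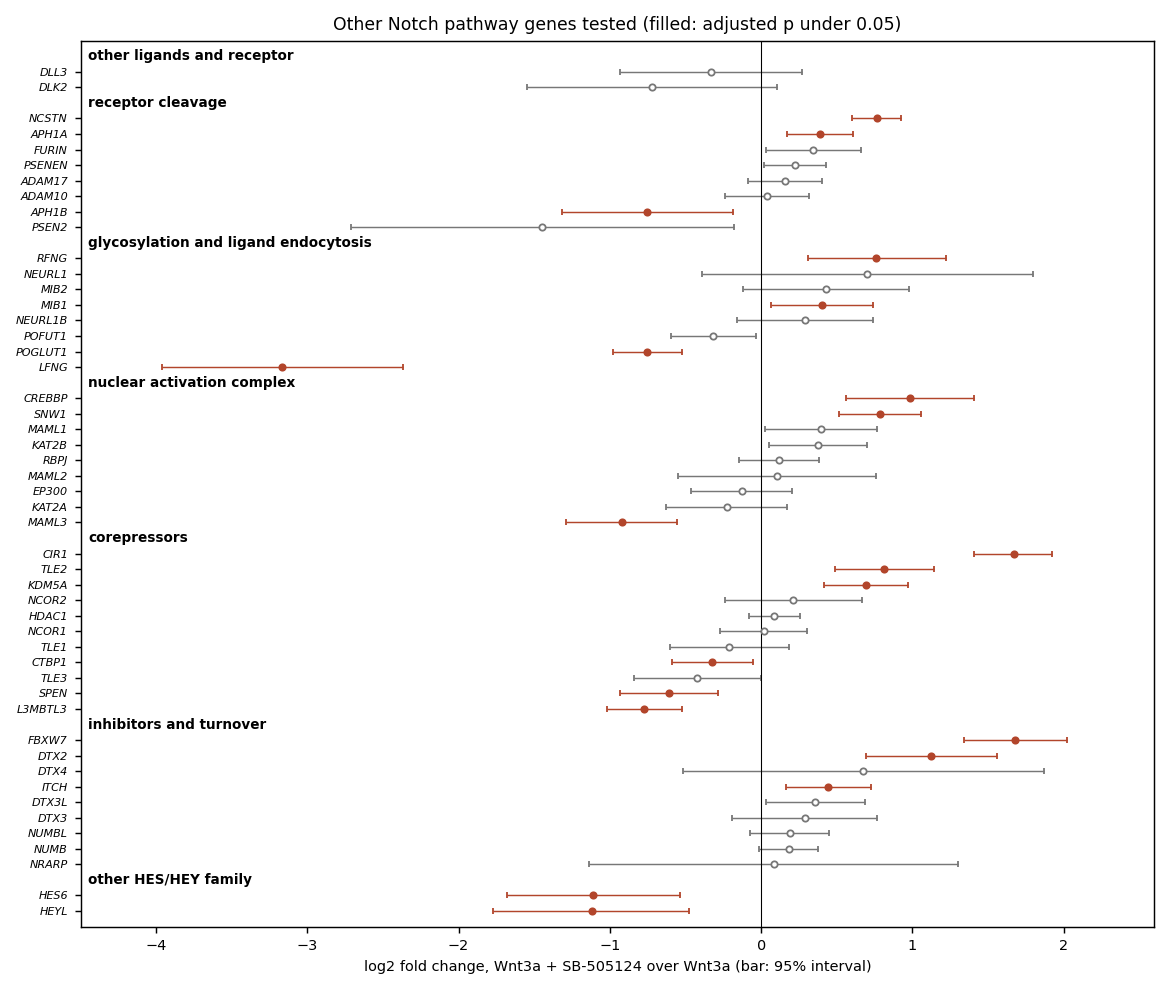
Log2 fold change in inhibitor over Wnt3a cells (x axis) of 49 of the 50 tested genes of the other Notch lists, sorted within each list, with the 95% interval as a bar. Filled points passed an adjusted p of 0.05 over all genes, 12 higher and 9 lower, from LFNG at -3.17 to FBXW7 at 1.68.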

How the data were processed

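Per the submitters' processing notes, the reads were processed with CASAVA 1.8.2, Trimmomatic 0.36, STAR 2.5.2a and RSEM 1.2.31 on hg38. Neither the annotation release nor the strand setting of the counting is stated in those notes or the labels. Whether the counting told reads of overlapping or antisense genes apart is therefore not known. Per the file headers, the deposited tables give for each gene an expected count, the authors' TPM and FPKM, which divide by transcript length and library size, and lengths. FPKM was not used here. Each table had 58278 rows, and 45 second rows of pseudoautosomal genes were added to their partners. Of 58233 IDs, 57895 were found in GENCODE release 29.

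Expected counts were rounded and filtered with filterByExpr, which left 17880 genes. They were scaled with TMM factors and tested with the quasi-likelihood F test (2-sided) of edgeR 4.0.16 in R 4.3.3 on all 9 libraries, with Benjamini-Hochberg adjustment over all genes and a threshold of 0.05. The common biological coefficient of variation was 21.5%. The SE is the size of a log2 fold change divided by the square root of F, and 95% intervals use the moderated degrees of freedom.

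Alternatives were other scalings and filters, DESeq2 1.42.0, limma 3.58.1 on voom values and on log2 TPM with a pseudocount of 1 or 0.1, an offset for effective length, a replicate block, and leaving out each library. The 10 genes and the lists were chosen with earlier results of these data known. In each other list, up to 3 genes per comparison with the smallest adjusted p and a mean of at least 1 CPM were named. APH1B, RBPJ, MAML1, MAML2 and the single cell type markers were named after their values were seen, and the alternatives were not examined for them. Some genes that this rule selects are not reported here.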

Additional observations from a re-analysis of the deposited data

How the results depend on the processing

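Over 63 gene results and 1323 alternative values, 1249 kept their direction and their side of the threshold, 21 lost a call, 32 gained one and 21 changed sign. No result that passed changed sign under any alternative. The count of genes called in Wnt3a over vehicle cells was 75, and it was 298 with DESeq2, 259 with every gene of at least 1 count, and 20 to 140 when a library was left out. The highest count, 140, came without inhibitor library 1, and the lowest, 20, without vehicle library 3. It was also lower without Wnt3a library 1 (47) or 2 (32) and without vehicle library 1 (26) or 2 (48). The unadjusted p was under 0.05 for 1362 genes there. No Notch gene of the 10 was called in that comparison by any tool or setting. The count of the 10 called in inhibitor over vehicle cells was 2. It was 5 with library totals alone, with every gene of at least 1 count and with DESeq2, and 4 with both TPM fits and with the replicate block.

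All changes of sign were in values that did not pass the threshold. JAG2 in Wnt3a over vehicle cells was 0.01 with library totals alone, 0.12 with the length offset, 0.15 and 0.18 with TPM at pseudocounts of 1 and 0.1, and -0.10 to 0.15 when a library was left out. NOTCH3 there was -0.0024 with only the 2 groups compared, -0.0007 with the replicate block, and -0.14 to 0.18 when a library was left out. With a library left out, NOTCH1 there was -0.29 to 0.038 and HEY1 -0.0074 to 2.84. Left-out libraries also gave NOTCH3 -0.32 to 0.097, HES4 -0.67 to 0.16 and HEY1 -1.76 to 0.97 in inhibitor over Wnt3a cells, and NOTCH3 -0.31 to 0.11 in inhibitor over vehicle cells. NOTCH3 in that last comparison was 0.14 with the length offset. The cause of these changes was not tested.

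Libraries of the same number did not deviate together in every pair. The correlations of deviations for replicates 1, 2 and 3 were 0.0146, 0.416 and 0.353 in Wnt3a over vehicle cells, 0.325, -0.165 and 0.205 in inhibitor over Wnt3a cells, and -0.0329, -0.182 and 0.0819 in inhibitor over vehicle cells. A library correlated best with its own number in 8 of 18 cases, each a choice among the 3 libraries of another group. The 18 cases take each pair of groups in both directions, and no test was run on them. The replicate block gave 79, 9166 and 9039 calls in the 3 comparisons in that order, against 75, 9013 and 8895 without it. With the block NOTCH1 passed in inhibitor over Wnt3a cells (0.83, adjusted p = 0.0263, edgeR), and HES1 (-0.39, adjusted p = 0.0203, edgeR) and HES4 (-0.95, adjusted p = 0.0171, edgeR) in inhibitor over vehicle cells. DLL1 and HEY2, at under 0.33 CPM, are limited by depth.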
